A study of Mus musculus with 8 samples.

Results

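The 10 genes described here encode 3 families of transcription factors of the adipocyte: the peroxisome proliferator-activated receptors (Pparg, Ppara, Ppard), their partners the retinoid X receptors (Rxra, Rxrb, Rxrg), and the CCAAT/enhancer-binding proteins (Cebpa, Cebpb, Cebpd, Cebpg). They were chosen by gene symbol among the 54532 genes of the deposited table, and all 10 were found, each on 1 entry. Brown adipose tissue, which burns fat to make heat, was taken from 4 mice of genotype WT and 4 mice labelled TG, which the design text calls CLCF1-ATG. The sources used here do not give the promoter behind TG, the cells that carry it, or the strain, age and sex of the mice, and they name no treatment for either group. CLCF1 is a secreted cytokine of the interleukin-6 family, and the series title places the study in heat production and the making of mitochondria by brown adipocytes. The level of Clcf1 followed the labels, at 0.434 to 3.40 FPKM in the WT libraries and 78.7 to 89.9 FPKM in the TG libraries.

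PPARs are nuclear receptors that bind fatty acids and their derivatives. They sit on DNA as dimers with an RXR, usually at 2 copies of a short half-site arranged as a direct repeat. PPARgamma is required for fat cells to form and drives genes of lipid storage, PPARalpha drives fatty acid oxidation and is typical of brown over white fat, and PPARdelta is expressed in many tissues. RXRs bind 9-cis retinoic acid and also serve as the partner of retinoic acid, thyroid hormone, vitamin D and liver X receptors. C/EBPs are leucine zipper proteins that act in sequence in fat cell formation: C/EBPbeta and C/EBPdelta come early and turn on PPARgamma and C/EBPalpha, which then maintain each other's expression. C/EBPgamma lacks a strong activation domain and pairs with other leucine zipper proteins.

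Sequence upstream of the annotated starts shows where motifs of these same families stand in their own genes. RefSeq windows on build GRCm38.p6 were matched for 9 of the 10 genes, 14 windows in all, and the 250 bases before each start were searched. Those shown hold C/EBP or receptor motifs and touch no annotated exon. Capitals mark matches, on either strand, to the nuclear receptor half-site AGGTCA or to the C/EBP forms TTGCNNAA and TTGCNNCA. The latter form was added to the search after the other motifs had been chosen.
Pparg, the third annotated start, chr6:115421816-115422065, plus strand: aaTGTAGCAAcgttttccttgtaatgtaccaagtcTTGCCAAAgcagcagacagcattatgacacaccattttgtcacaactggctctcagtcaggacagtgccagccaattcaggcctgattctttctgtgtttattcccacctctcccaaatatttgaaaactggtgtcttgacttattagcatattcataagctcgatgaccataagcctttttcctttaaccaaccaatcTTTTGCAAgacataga
Cebpa, chr7:35119043-35119292, plus strand: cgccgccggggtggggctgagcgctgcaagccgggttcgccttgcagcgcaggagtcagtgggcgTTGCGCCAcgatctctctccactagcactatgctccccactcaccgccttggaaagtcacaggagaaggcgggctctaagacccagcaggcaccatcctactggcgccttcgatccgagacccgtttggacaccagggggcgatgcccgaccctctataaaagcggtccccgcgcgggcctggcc
Rxra, second start, chr2:27709042-27709291, plus strand: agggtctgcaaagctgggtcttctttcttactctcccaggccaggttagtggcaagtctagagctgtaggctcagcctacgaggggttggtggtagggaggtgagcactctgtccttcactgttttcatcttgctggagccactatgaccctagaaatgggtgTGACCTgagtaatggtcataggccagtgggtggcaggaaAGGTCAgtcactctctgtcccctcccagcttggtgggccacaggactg
Rxrg, second start, chr1:167618015-167618264, plus strand: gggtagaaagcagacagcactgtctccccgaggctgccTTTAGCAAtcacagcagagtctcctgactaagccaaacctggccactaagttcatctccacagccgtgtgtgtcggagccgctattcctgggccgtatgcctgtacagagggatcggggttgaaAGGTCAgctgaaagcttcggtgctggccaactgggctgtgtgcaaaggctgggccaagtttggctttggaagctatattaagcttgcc

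The Pparg window shown, before the start of the isoform known as Pparg2, held TTGCNNAA at -215 and, on the minus strand, at -16, and TTGCNNCA on the minus strand at -248, counting the last base before the start as -1. The Cebpa window held TTGCNNCA at -185. The second Rxra window held the half-site at -87 on the minus strand and at -48, and the second Rxrg window held it at -88 with TTGCNNAA at -212 on the minus strand. Half-sites were also found at -28 and -9 in the other Pparg windows. Over 32851 mouse windows of the same length, 14.0% held the half-site, 9.56% held TTGCNNAA and 9.59% held TTGCNNCA on either strand. No window of these genes held the direct repeat AGGTCANAGGTCA (0.0335% of all windows), the STAT form TTCNNNGAA (7.02%), the cAMP response element TGACGTCA (1.55%) or the E-box CACGTG (6.02%). A match in these letters is a description of the sequence, and the data hold no measurement of binding.

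Of the 10 genes, 3 were higher in TG (Rxra, Cebpa and Ppard), 4 were lower (Ppara, Rxrb, Rxrg and Cebpb) and 3 did not pass the test (Pparg, Cebpd and Cebpg). The test was limma on log2(FPKM + 1) over all 12508 genes with 0.5 FPKM or more in 4 or more libraries, at a Benjamini-Hochberg adjusted p under 0.05, and all 10 genes entered it. Of all tested genes 44.1% passed, 22.3% higher and 21.8% lower, so 7 of 10 is to be read against that share. Division by all recovered reads called 5536 genes higher (44.3%) and 1442 lower (11.5%), in place of 2788 and 2725. Rxra, Cebpa, Ppara and Cebpb also changed by at least 1 on the log2 scale, as did 12.9% of all tested genes. The groups did not overlap in 8 of the 10 genes, against 42.6% of all tested genes. Each family held both directions. The median log2 change of the 10 genes was -0.15, and that of all tested genes was 0.012.

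**Figure D1:**
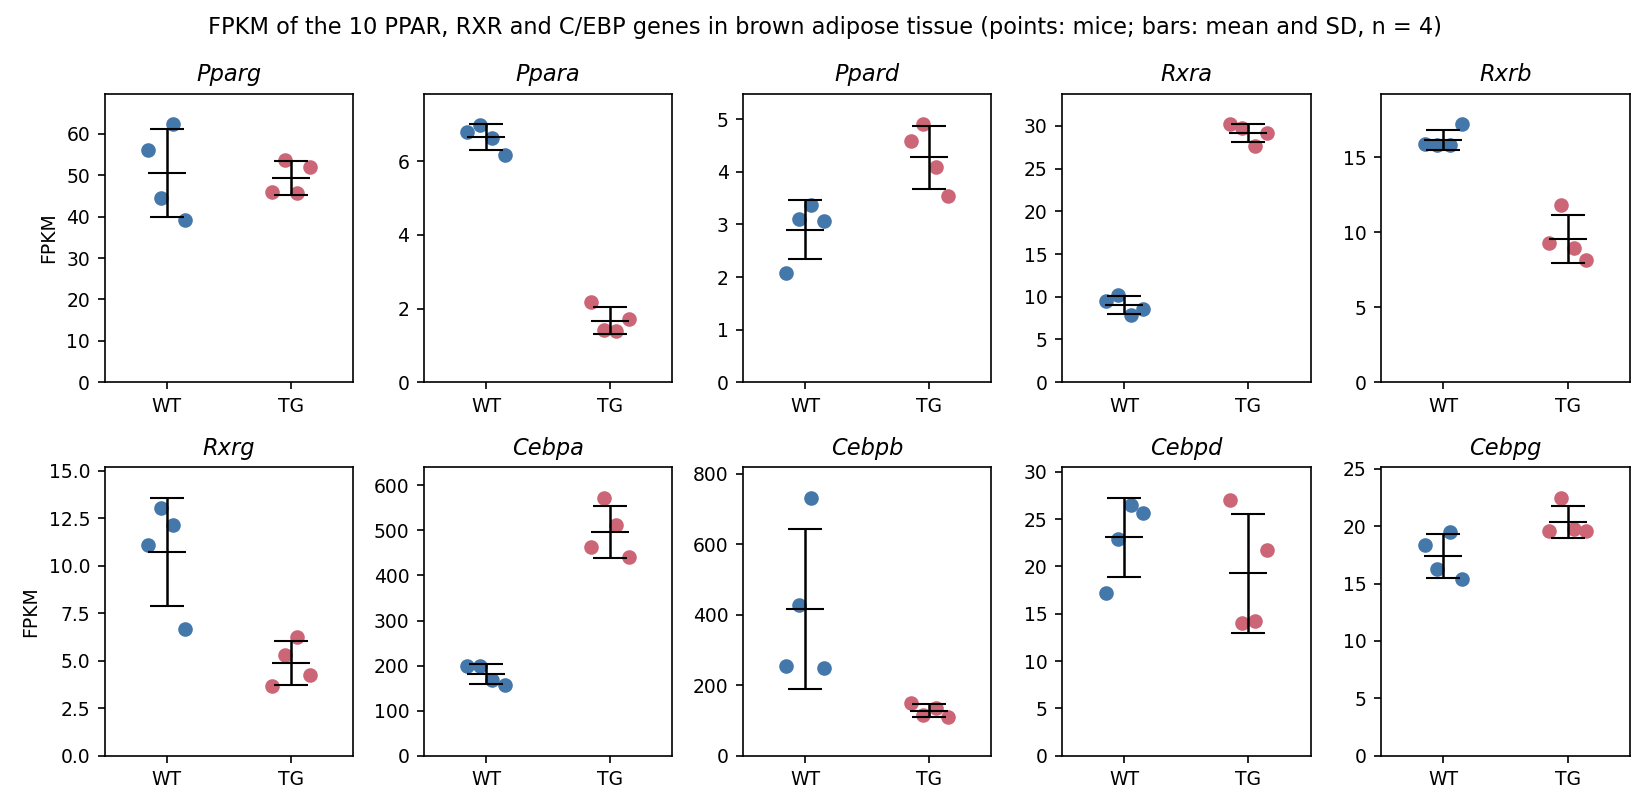
FPKM of each of the 10 genes in each mouse (points), with the mean and SD of the 4 WT and 4 TG libraries, each panel on its own linear axis from 0. Rxra and Cebpa stood higher in every TG mouse than in any WT mouse and Ppara, Rxrb, Rxrg and Cebpb lower, while the groups overlapped for Pparg and Cebpd.

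FPKM values are per gene length, so levels of different genes can be set side by side. In WT the order of mean levels was Cebpb, Cebpa, Pparg, Cebpd, Cebpg, Rxrb, Rxrg, Rxra, Ppara and Ppard. Neighbours whose library ranges overlapped there were Cebpd with Cebpg, Cebpg with Rxrb, and Rxrg with Rxra. In TG the order was Cebpa, Cebpb, Pparg, Rxra, Cebpg, Cebpd, Rxrb, Rxrg, Ppard and Ppara, and only Cebpg with Cebpd and Rxrg with Ppard overlapped. Cebpa and Cebpb thus stood in opposite order in the 2 genotypes in every mouse, as did Ppara and Ppard.

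Pparg (ENSMUSG00000000440, chr6:115360951-115490399, plus strand, mm10 as in the deposited table) is the receptor that fat cell formation requires. It measured 56.2, 44.5, 62.3 and 39.1 FPKM in WT mice 1, 2, 3 and 5, and 46.1, 53.6, 45.6 and 51.9 FPKM in TG mice 1, 2, 3 and 5. All TG values lay inside the range of the WT values. The means were 50.5 ± 10.6 and 49.3 ± 4.05 FPKM (SD, n = 4 each), and the log2 change was -0.015 (SE 0.152, limma adjusted p = 0.947), with a 95% interval of -0.35 to 0.33. The direction for Pparg turned with the scaling: dividing by all recovered reads gave 0.41 (adjusted p = 0.0457), where the median of all genes stood at 0.32. The table gives 1 value per gene, so the Pparg1 and Pparg2 isoforms, which start at different first exons, were not told apart. GENCODE M21 lists 7 transcripts for the gene, 5 of them coding.

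Ppara (ENSMUSG00000022383, chr15:85734983-85802819, plus strand), the receptor tied to fatty acid oxidation, was lower in TG. It measured 6.79, 6.995, 6.63 and 6.17 FPKM in WT mice 1, 2, 3 and 5, and 2.19, 1.40, 1.38 and 1.72 FPKM in TG mice 1, 2, 3 and 5. The lowest WT mouse stood above the highest TG mouse, and the spread within each genotype was small beside the gap. The mean fell 3.98-fold, from 6.65 ± 0.351 to 1.67 ± 0.376 FPKM, a change of -1.53 on the log2 scale (SE 0.118, limma adjusted p = 1.17e-05).

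Ppard (ENSMUSG00000002250, chr17:28232700-28301474, plus strand), the widely expressed member, was the least abundant PPAR in WT. It measured 2.08, 3.11, 3.36 and 3.06 FPKM in WT mice 1, 2, 3 and 5, and 4.58, 4.90, 4.08 and 3.54 FPKM in TG mice 1, 2, 3 and 5. The groups did not overlap, but TG 5 and WT 3 stood close together. The mean was 1.47-fold higher in TG (2.90 ± 0.565 and 4.27 ± 0.596 FPKM) (log2 change 0.44, SE 0.139, limma adjusted p = 0.0278). The call did not hold without WT 1 (log2 change 0.33, adjusted p = 0.0538), TG 1 (0.41, 0.0718), TG 2 (0.38, 0.0829) or TG 3 (0.46, 0.0531), or with no filter on low genes (0.0633).

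Rxra (ENSMUSG00000015846, chr2:27676440-27762957, plus strand), the RXR most often named as the partner of PPARs, was higher in TG. It measured 9.54, 10.2, 7.81 and 8.59 FPKM in WT mice 1, 2, 3 and 5, and 30.2, 29.7, 27.7 and 29.2 FPKM in TG mice 1, 2, 3 and 5. Each TG value lay far above each WT value. The mean rose 3.23-fold, from 9.05 ± 1.07 to 29.2 ± 1.09 FPKM (log2 change 1.59, SE 0.103, limma adjusted p = 4.81e-06).

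Rxrb (ENSMUSG00000039656, chr17:34031812-34038393, plus strand), an RXR found in most tissues, was lower. It measured 15.9, 15.8, 15.8 and 17.2 FPKM in WT mice 1, 2, 3 and 5, and 9.30, 11.8, 8.96 and 8.13 FPKM in TG mice 1, 2, 3 and 5. The highest TG mouse, TG 2, remained under the lowest WT mouse. The mean fell 1.69-fold, from 16.2 ± 0.681 to 9.56 ± 1.60 FPKM (log2 change -0.71, SE 0.117, limma adjusted p = 0.00103).

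Rxrg (ENSMUSG00000015843, chr1:167598384-167639623, plus strand) is the RXR with the narrowest expression across tissues, known from muscle and brain. It measured 11.1, 13.0, 12.1 and 6.66 FPKM in WT mice 1, 2, 3 and 5, and 3.69, 5.32, 6.25 and 4.25 FPKM in TG mice 1, 2, 3 and 5. WT 5 stood below the other WT mice and just above TG 3. The mean fell 2.20-fold, from 10.7 ± 2.83 to 4.88 ± 1.14 FPKM (log2 change -0.98, SE 0.209, limma adjusted p = 0.00426). Rxra therefore moved against both of its paralogs, under each of the 23 alternative settings tried.

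Cebpa (ENSMUSG00000034957, chr7:35119293-35121928, plus strand), which maintains the mature fat cell with PPARgamma, was higher in TG. It measured 199.9, 199.7, 168 and 157 FPKM in WT mice 1, 2, 3 and 5, and 463, 572, 512 and 440.0 FPKM in TG mice 1, 2, 3 and 5. The lowest TG mouse had more than the highest WT mouse by a wide margin. The mean rose 2.74-fold, from 181 ± 21.9 to 497 ± 58.5 FPKM (log2 change 1.45, SE 0.134, limma adjusted p = 3.29e-05). Gm45091, an antisense gene that shares 313 bases with Cebpa, was also higher (2.60 and 8.54 FPKM, log2 change 1.48, adjusted p = 0.00881). The sources used here do not give the strand setting of the counting, so reads from the stretch they share cannot be told apart.

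Cebpb (ENSMUSG00000056501, chr2:167688915-167690418, plus strand), an early factor of fat cell formation that also responds to cytokines and cAMP, was lower in TG. It measured 255, 429, 731 and 248 FPKM in WT mice 1, 2, 3 and 5, and 149.5, 115, 136 and 109.8 FPKM in TG mice 1, 2, 3 and 5. WT 3 stood highest and the WT mice spread widely, but all lay above the TG mice. The mean fell 3.26-fold, from 416 ± 226 to 128 ± 18.6 FPKM (log2 change -1.56, SE 0.317, limma adjusted p = 0.00331), and without WT 3 it was -1.24. WT 3 also had the highest summed level of 10 neutrophil markers, 398 FPKM, where the WT range was 14.0 to 398 and the TG range 4.22 to 26.9 FPKM. C/EBPbeta is expressed in myeloid cells too, and the part of those cells in the Cebpb level was not tested. Tmem189, on the opposite strand, shares 908 bases with Cebpb and was higher in TG (5.17 and 7.0 FPKM, log2 change 0.38, adjusted p = 0.0178).

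Cebpd (ENSMUSG00000071637, chr16:15887286-15891031, plus strand), the other early factor, did not pass the test. It measured 17.2, 22.9, 26.5 and 25.6 FPKM in WT mice 1, 2, 3 and 5, and 27.0, 14.0, 14.3 and 21.7 FPKM in TG mice 1, 2, 3 and 5. TG 1 was the highest of all 8 mice and TG 2 the lowest, so the groups overlapped. The log2 change was -0.28 (SE 0.220, limma adjusted p = 0.327), with a 95% interval of -0.78 to 0.21, and division by all recovered reads gave 0.13, below the median of all genes of 0.32 in that scaling. Spidr, on the opposite strand, shares 1808 bases with Cebpd and was higher in TG (0.468 and 1.32 FPKM, log2 change 0.66, adjusted p = 0.000973).

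Cebpg (ENSMUSG00000056216, chr7:35046422-35056573, minus strand) lies 62.7 kb from Cebpa between the starts of the 2 genes, which point away from each other. It measured 18.4, 16.2, 19.5 and 15.4 FPKM in WT mice 1, 2, 3 and 5, and 19.6, 22.5, 19.8 and 19.6 FPKM in TG mice 1, 2, 3 and 5. The groups did not overlap, by a margin far smaller than the spread within either genotype. The log2 change was 0.22 (SE 0.106, limma adjusted p = 0.119), with a 95% interval of -0.017 to 0.46. Cebpg passed under 6 other scalings, for example at 0.63 after division by all recovered reads (adjusted p = 0.00112), which is 0.31 above the median of all genes in that scaling. There 5 of the 10 genes were higher and 4 lower.

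**Figure D2:**
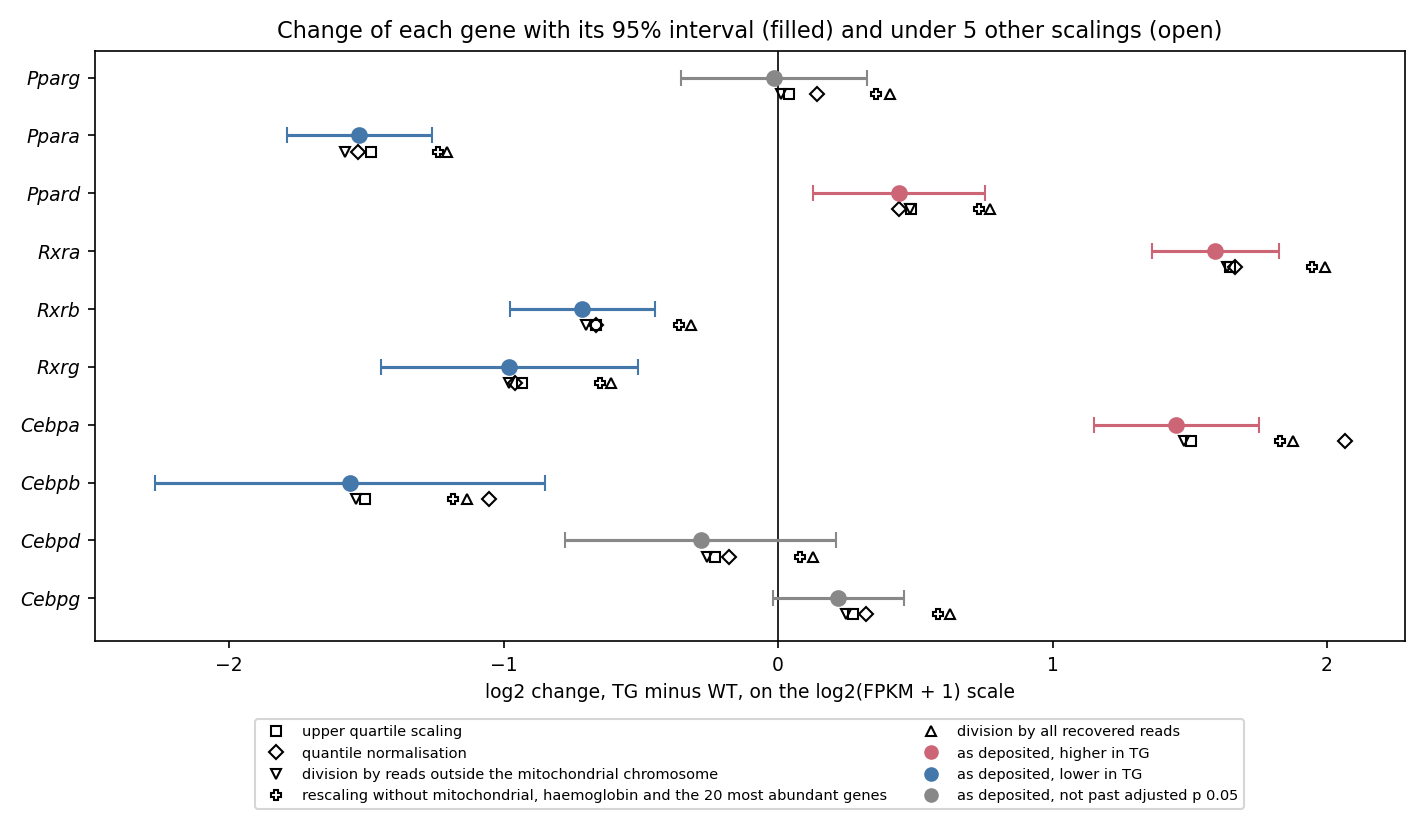
Difference in mean log2(FPKM + 1) of each gene, TG minus WT, with its 95% interval from limma. The intervals of Pparg, Cebpd and Cebpg include 0, and those of the other 7 genes do not.

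For the 8 genes whose groups did not overlap, the two-sided exact permutation test of FPKM over 70 assignments gave p = 0.0286, the smallest p that 4 mice against 4 allow. The same exact test gave p = 0.8 for Pparg and p = 0.343 for Cebpd. A mouse is the unit in these tests. The limma p sets the difference of the means against the spread between mice, with a variance that draws on all tested genes. The exact p only places the observed difference among the 70 assignments. Tissue was sequenced in bulk, so fewer cells of a type and less RNA per cell cannot be told apart for any of these genes.

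The makeup of each family differed between the genotypes in each mouse. The 3 PPARs summed to 60.1 ± 10.7 FPKM in WT and 55.2 ± 4.02 FPKM in TG, the 3 RXRs to 36.0 ± 2.75 and 43.6 ± 2.28 FPKM, and the 4 C/EBPs to 637 ± 227 and 664 ± 55.3 FPKM (SD, n = 4 each). The sums of the PPARs and of the C/EBPs overlapped between the genotypes, and those of the RXRs did not. Shares within a family were described and not tested. Pparg made up 83.7% ± 2.94 of PPAR FPKM in WT and 89.2% ± 1.49 in TG. Ppara made up 11.3% ± 1.80 and 3.05% ± 0.777.

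Rxra made up 25.2% ± 2.22 of RXR FPKM in WT and 67.0% ± 3.55 in TG. Rxrb went from 45.3% ± 5.39, the largest share in WT, to 21.8% ± 2.44, and Rxrg from 29.5% ± 6.22 to 11.2% ± 2.54. Cebpa made up 30.9% ± 9.81 of C/EBP FPKM in WT and 74.7% ± 3.63 in TG, while Cebpb went from 62.3% ± 11.3 to 19.3% ± 2.85.

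A ratio of 2 genes within a mouse does not depend on a factor that scales the whole library. The ratio of Cebpa to Cebpb ran from 0.230 to 0.785 in the WT mice and from 3.10 to 4.996 in the TG mice. The ratio of Rxra to Rxrb ran from 0.494 to 0.647 in WT and from 2.51 to 3.59 in TG. The ratio of Pparg to Ppara ran from 6.33 to 9.40 in WT and from 21.1 to 38.2 in TG. None of the 3 ratios overlapped between the genotypes.

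**Figure D3:**
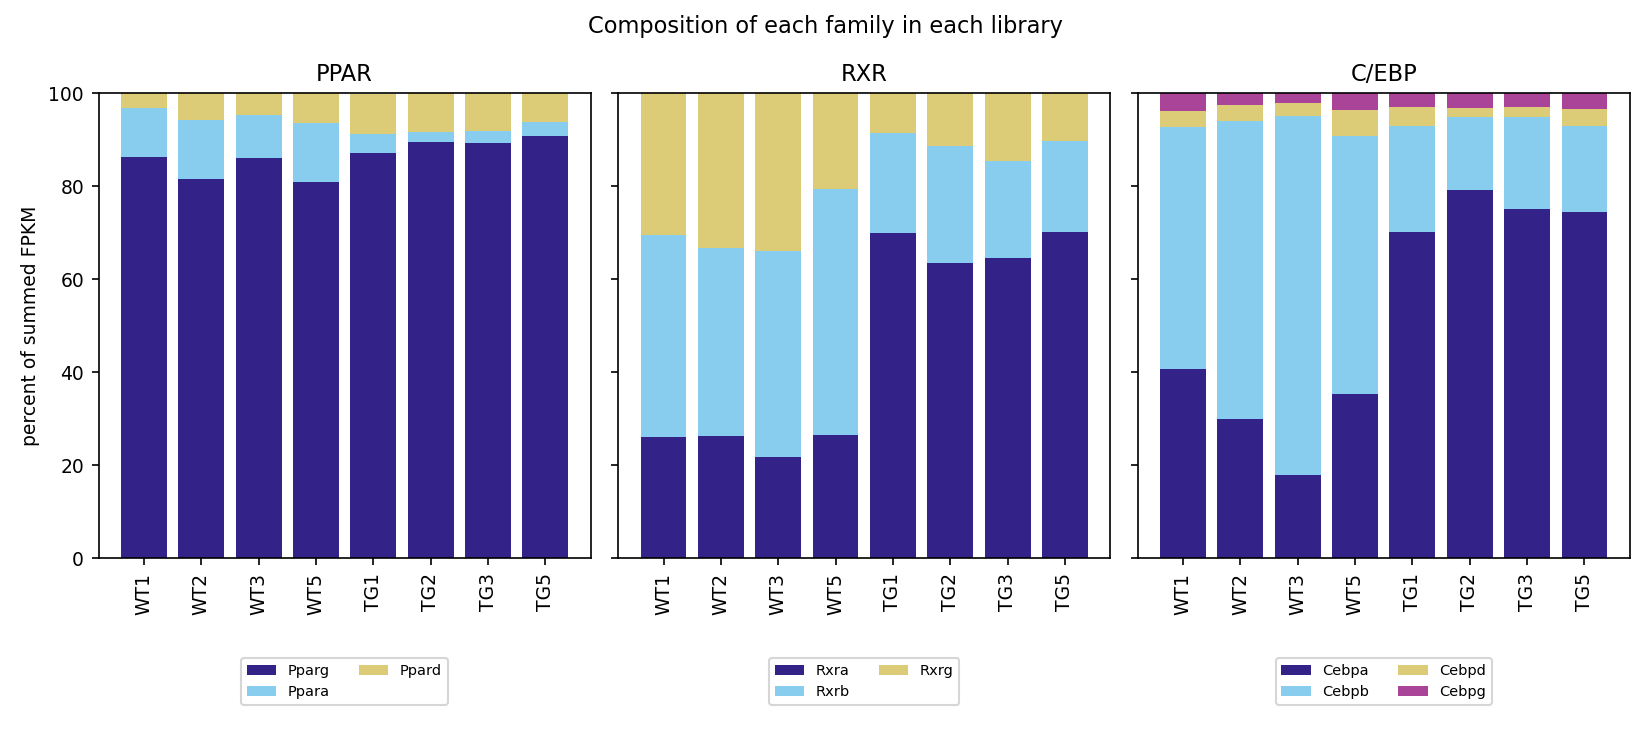
Makeup of each family in each mouse, as the percent of the summed FPKM of the family held by each member. Rxra and Cebpa held the largest share in each TG mouse, and in each WT mouse Rxrb and Cebpb did, while Pparg dominated its family in all 8 mice.

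Counts of related genes below are to be set beside 22.3% higher and 21.8% lower over all tested genes, and after division by all recovered reads beside 44.3% and 11.5%. Coregulators are the proteins through which these receptors turn genes on or off. Of 24 measured, 10 were higher, 3 lower and 11 not past the test (median log2 change 0.28), and after division by all recovered reads 14 were higher and 1 lower. Nrip1, a corepressor of nuclear receptors that holds down oxidative genes in fat, rose from 2.88 ± 0.451 to 10.6 ± 1.02 FPKM (log2 change 1.58). Tbl1x, a subunit of the NCoR and SMRT corepressor complexes, rose from 5.57 ± 1.00 to 14.5 ± 0.992 FPKM (1.25), and the coactivator Ncoa4 rose by 0.89. Ppargc1b, a coactivator of oxidative genes, fell from 4.46 ± 0.766 to 0.702 ± 0.131 FPKM (-1.67).

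Of 13 receptors that pair with RXR, 8 were measured well enough to test, of which 3 were higher, 1 lower and 4 did not pass. After division by all recovered reads 5 were higher, and without WT 1 2 were lower. Nr1h3, the liver X receptor alpha, was 45.5 ± 3.86 FPKM in WT and 72.6 ± 8.74 FPKM in TG (log2 change 0.66). The retinoic acid receptor Rara rose by 0.68, the thyroid hormone receptor Thra rose by 0.47, and Nr4a2, an orphan receptor, fell by 0.70. In the genes that make or carry ligands, 13 of 22 were tested, with 8 higher, 2 lower and 3 not past the test. Aldh1a2, which makes retinoic acid, rose from 0.451 ± 0.395 to 4.90 ± 0.949 FPKM (2.05), and Aldh1a7, a related dehydrogenase, rose by 1.10. Fabp3, a fatty acid carrier of oxidative tissues, fell from 1713 ± 663 to 21.4 ± 8.71 FPKM (-6.27). Ptgds, a prostaglandin D2 synthase, fell from 5.23 ± 3.52 to 0.0898 ± 0.161 FPKM (-2.33) and passed the filter through its WT libraries alone. The count of 8 higher genes of ligand supply was 3 with no filter, 3 without TG 2, 4 without WT 5 or TG 5, and 5 without WT 2, WT 3 or TG 1. Its 2 lower genes became 1 without any single WT mouse, because Ptgds then missed the filter and was not tested.

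Among other C/EBP family genes and leucine zipper partners, 14 of 16 were tested, with 1 higher, 7 lower and 6 not past the test (median log2 change -0.61). After division by all recovered reads 3 were higher and 6 lower. Ddit3, the stress-induced C/EBP homolog CHOP, went from 23.0 ± 4.78 to 10.8 ± 1.23 FPKM (-1.02); its symbol is on 2 entries and the more abundant was used. Hlf, a leucine zipper factor of the clock-output group, fell by 1.07, and Trib2, a pseudokinase that promotes the breakdown of C/EBPalpha, fell by 1.27. Dbp, a clock-output factor of the same group as Hlf, rose from 14.1 ± 3.48 to 36.9 ± 8.28 FPKM (1.33).

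Regulators that act before or beside these factors in fat cell formation were split. Of 31 genes, 27 were tested, with 11 higher, 7 lower and 9 not past the test (median 0.078), and that count includes Pparg, Cebpa, Cebpb and Cebpd. Klf15, a zinc finger activator of adipocyte genes, rose from 3.99 ± 1.26 to 36.8 ± 2.45 FPKM (2.95). Srebf1, the activator of fatty acid synthesis genes, rose from 19.5 ± 4.35 to 105 ± 14.2 FPKM (2.39). Zfp423, a preadipocyte zinc finger factor also known for holding fat cells in a white state, rose from 1.89 ± 0.522 to 6.95 ± 0.637 FPKM (1.47).

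Textbook target genes of each factor were counted, which does not measure the activity of the factor. The lists share genes, 9 of them between the PPARgamma and C/EBPalpha lists. The PPARgamma list holds the brown adipocyte markers Ucp1 and Cidea and every adipocyte marker counted further below. The C/EBPalpha list holds the adipocyte markers Adipoq, Fabp4, Cfd and Pnpla2 and the white adipocyte markers Lep and Retn. Counts of targets and of markers are therefore not separate observations. Of 38 PPARalpha targets of fatty acid oxidation, 27 were tested, with 5 higher, 18 lower and 4 not past the test (median -1.15). Acaa2, the last enzyme of mitochondrial beta-oxidation, went from 2347 ± 334 to 204 ± 33.3 FPKM (-3.52). Slc27a2, a fatty acyl-CoA synthetase, went from 38.3 ± 3.97 to 1.47 ± 0.813 FPKM (-4.04). Hadhb, the beta chain of the mitochondrial trifunctional protein, was 361 ± 74.0 FPKM in WT mice against 61.8 ± 7.48 FPKM in TG mice (-2.51). Among those that rose were Vnn1, Pex11a, a peroxisomal membrane protein gene, and Cpt1a, named after their values were seen.

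Of 34 PPARgamma targets, 32 were tested, with 14 higher, 7 lower and 11 not past the test (median 0.26), and quantile normalisation left 4 lower. Plin4, a lipid droplet coat protein, rose from 96.7 ± 21.1 to 400.4 ± 53.7 FPKM (2.05), and Hcar2, a receptor that restrains lipolysis, from 8.37 ± 1.65 to 37.4 ± 6.26 FPKM (2.04). Ucp1, the uncoupling protein of brown fat, went from 1420 ± 371 to 82.8 ± 45.3 FPKM (-4.21), and Cidea, a lipid droplet protein typical of brown fat, from 2031 ± 316 to 111 ± 39.5 FPKM (-4.24). Of 16 C/EBPalpha targets, all tested, 9 were higher, 1 lower and 6 not past the test (median 0.83). Adipoq, the hormone adiponectin, went from 650.3 ± 50.4 to 1864 ± 220.3 FPKM (1.51), and Cfd, the secreted protease adipsin, from 3702 ± 1159 to 18445 ± 3849 FPKM (2.34). Insr, the insulin receptor, rose by 1.21. Irs1, its docking protein, rose from 0.253 ± 0.0949 to 1.31 ± 0.140 FPKM (0.88) and passed the filter through its TG libraries alone. Each gene of these lists given with a log2 change was picked for a low limma p past the threshold, so its pass is no separate result. The groups of these genes did not overlap, which such a choice favours, and 42.6% of all tested genes did not overlap either.

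**Figure D4:**
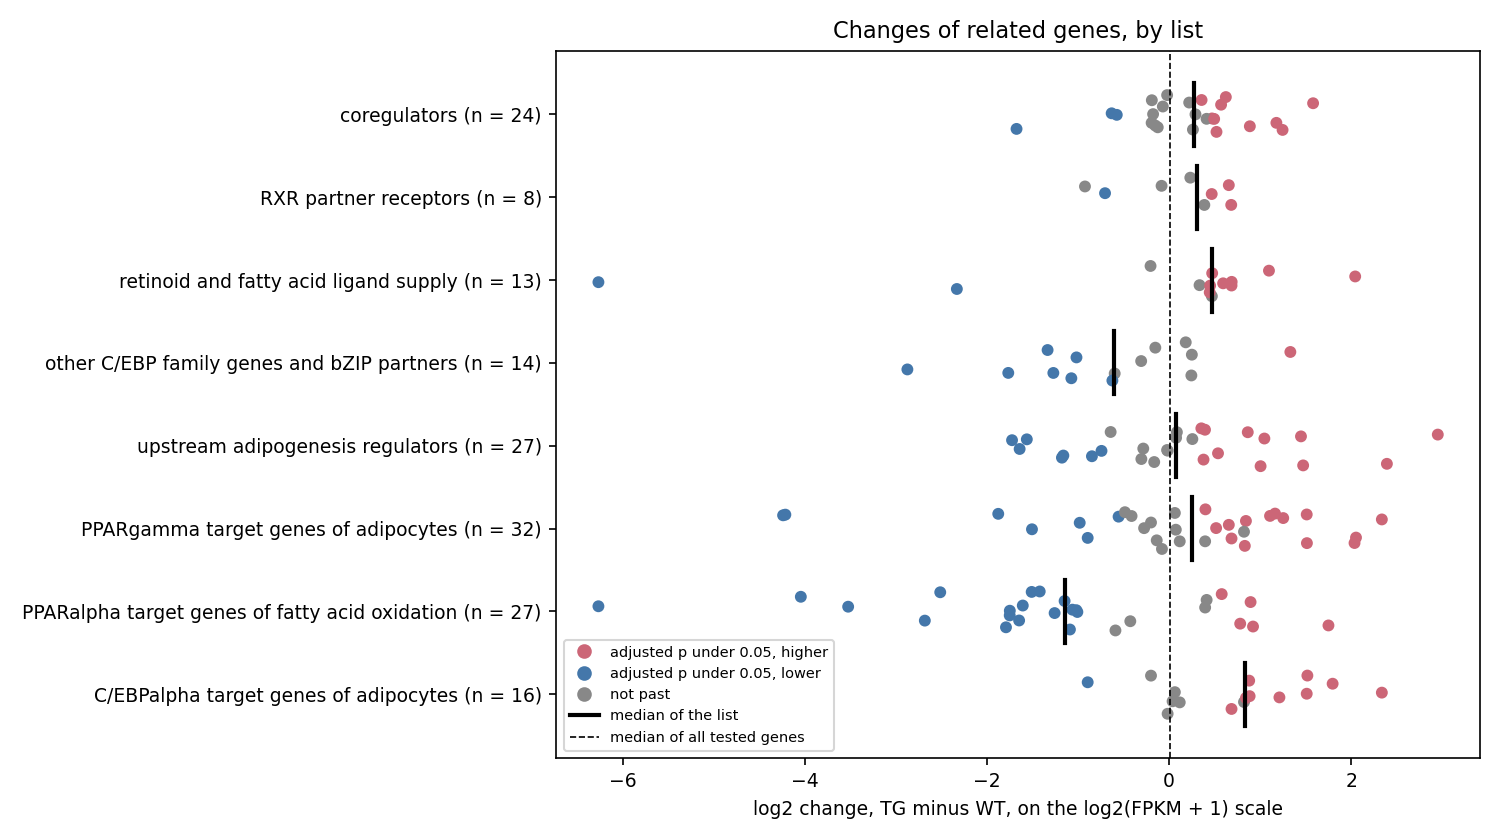
Difference in mean log2(FPKM + 1), TG minus WT, of every tested gene of each list (points), with the list's median. The PPARalpha targets lay mostly below 0 (median -1.15) and the C/EBPalpha targets mostly above it (median 0.83), with the PPARgamma targets on both sides.

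By distance between profiles centred on their own mean over the 8 libraries, the genes nearest to Pparg among 10798 protein-coding genes were Tmem41b (0.206), Pxk (0.213), Ufd1 (0.224), Wtap (0.233) and Mras (0.235). Those nearest to Ppara were Arhgdig (0.265), Slc6a8 (0.331), Ccs (0.367), Afg1l (0.378) and Stom (0.386). Arhgdig fell from 1.83 ± 0.213 to 0.0322 ± 0.0645 FPKM and passed the filter through its WT libraries alone. The pseudocount of 1 understates a change at such low levels, so the distance of Arhgdig to Ppara holds for this scale alone. Those nearest to Cebpa were Gramd1b (0.219), Abhd15 (0.273), Nmnat3 (0.297), Mettl7a1 (0.311) and Wls (0.311). Distances are on the log2(FPKM + 1) scale, where 0 is the same profile, and a close profile says nothing of shared control.

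Marker genes of several, but not all, of the tissue's cell types moved with the genotype, and their part in the results above was not tested. Of 8 adipocyte markers 6 were higher and 0 lower (limma, adjusted p under 0.05), with sums of 8643 to 10428 FPKM in WT and 22235 to 34129 FPKM in TG. All 8 also stand in the PPARgamma target list. Cfd alone went from 3702 ± 1159 to 18445 ± 3849 FPKM, while Lpl and Pnpla2 did not pass the test. Of 10 brown adipocyte markers 9 were tested and 8 were lower, with sums of 6985 to 9901 and 637 to 1051 FPKM. Of 9 white adipocyte markers 8 were found and 6 tested, with Hoxc9 and Serpina3k left out by the filter. The 6 tested were all higher, and the list had sums of 292 to 406 and 1057 to 1619 FPKM. Among them Trim14 rose from 0.148 ± 0.192 to 0.727 ± 0.134 FPKM and passed the filter through its TG libraries alone.

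Endothelial markers were lower in 7 of 7 tested genes, with sums of 128 to 283 FPKM in WT and 22.5 to 42.0 FPKM in TG, and macrophage markers higher in 5 of 10, with sums of 226 to 379 and 385 to 470.2 FPKM. Skeletal muscle markers passed the test in 0 of 9 tested genes. They summed to 3623 FPKM in WT 2 and 2009 FPKM in TG 5, against 12.5 to 385 FPKM in the other mice. Muscle is a known site of Rxrg expression. Without WT 2 and TG 5 all 7 calls among the 10 genes held, with adjusted p from 0.0002 for Rxra to 0.0434 for Ppard. Of the other lists, progenitor and fibroblast markers were higher in 3 of 10 and lower in 2, T and B lymphocyte markers higher in 2 of 4 tested genes, and Schwann markers higher in 1 of 4 and lower in 1. Neutrophil markers were lower in 4 of 4 tested genes, pericyte and smooth muscle markers higher in 1 and lower in 6 of 7, and erythroid markers lower in 5 of 5. No marker in the table was at 0 in all libraries. The WT libraries held 13734231 to 15751302 reads recovered from the FPKM and the TG libraries 18494022 to 20183840, and mitochondrial genes held 24.1% to 37.5% of them in WT and 6.09% to 7.34% in TG.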

How the data were processed

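Per the labels' protocols, brown fat was frozen, RNA was isolated with Trizol, and libraries were made with an Illumina TruSeq kit. The submitters' processing notes name bcl2fastq, HISAT2 2.0.5, featureCounts 1.5.0-p3 and build mm10, without their order, strand setting or annotation release. For 54532 genes the authors deposited FPKM, which are fragments per length of gene and per library; the sources used here do not say how each library's scaling factor was obtained. The other deposited column used was gene length in bases, per the file headers.

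Multiplying FPKM by gene length gave whole multiples of 1 step per library (100% of values within 0.001 of a whole number), so reads were recovered and used for depth, for limma's voom and for other scalings, never as the main test. The main test was limma 3.58.1 in R 4.3.3 (eBayes with trend, two-sided) on log2(FPKM + 1), for the 12508 genes with 0.5 FPKM or more in 4 or more libraries, with p-values adjusted over all of them by Benjamini-Hochberg at 0.05. Log2 changes are TG minus WT, and the pseudocount of 1 understates the change of low genes. Single genes were also compared with exact permutation tests. Mice were grouped by the genotype in their labels, numbered 1, 2, 3 and 5 in each group. No batch, litter or day is given.

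The 10 genes and the 8 pathway and 12 marker lists were chosen with earlier results of these data known. Lists are described by counts and medians, with no test. The genes named are the 10, up to 4 per pathway list with the lowest p past the threshold, and the 5 protein-coding genes nearest in profile to Pparg, Ppara and Cebpa, leaving out provisional Gm and Rik symbols. Genes that overlap or neighbour one of the 10 were named for their position, and others outside this rule, such as those of the closing section, after their values were seen. A few counted genes are not reported here by name. Motifs were searched on both strands of RefSeq windows with Python 3.11.15. A comparison of protein sequences was planned and not run, since no protein table was used here.

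The procedure was tested on data simulated for TG versus WT, in 5 runs of 12780 to 12813 genes. Of genes raised 2-fold 55.6% were recovered, of those raised 4-fold 100%, of those lowered to 0.5 of their level 42% and to 0.25 of it 90%, and 8.64% of its calls were false. Each fold was given to 250 genes over the 5 runs, and the same dispersion was set for every gene. In the real data 44.1% of tested genes passed and the spread differed between genes, so these rates need not carry over. The 23 alternatives covered the pseudocount, the filter, scaling, variance model, gene type, replicate number as a block, voom, and libraries left out. Replicate libraries differed by more than sampling noise, so none was counted as a duplicate.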

Additional observations from a re-analysis of the deposited data

Results flagged for a closer look

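The FPKM values of each of the 10 genes were examined in each genotype for a mouse far from the other 3. In 2 cases the gap between the highest mouse and the nearest other exceeded Dixon's 95% limit for 4 values. Rxrb in WT 5 measured 17.2 FPKM, above 15.8, 15.8 and 15.9 FPKM in the other WT mice, a gap of 0.959 of the range. Cebpg in TG 2 measured 22.5 FPKM, above 19.6, 19.6 and 19.8 FPKM in the other TG mice, a gap of 0.945 of the range. Both gaps are small beside the level itself, and 20 groups of values were examined, of which chance alone marks about 1 in 20. Leaving out either mouse did not change the call of its gene.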

How the results depend on the processing

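Calls for Ppara, Rxra, Rxrb, Rxrg, Cebpa and Cebpb kept their direction and stayed past the threshold in all 23 alternatives. Ppard kept its log2 change of 0.44 but lost its call with no filter (adjusted p = 0.0633) and with the replicate block (0.0589); over the fits without 1 library it ran from 0.33 to 0.51. At a filter of 5 FPKM, 3148 genes passed, 1445 higher and 1703 lower, and Ppard was not tested. Pparg turned to 0.040 (upper quartile scaling), 0.14 (quantile normalisation), 0.012 (division by reads outside the mitochondrial chromosome), 0.36 (rescaling that leaves out haemoglobin genes, mitochondrial genes and the 20 highest, adjusted p = 0.0328), 0.41 (division by all recovered reads, 0.0457) and 0.41 (voom, 0.0371), and without 1 library it ran from -0.13 to 0.092. Cebpg passed at 0.27, 0.32, 0.25, 0.58, 0.63 and 0.66 under the same 6 settings. Cebpd turned to 0.081, 0.13 and 0.13 under the last 3, where the median of all genes shifted to 0.28, 0.32 and 0.45, genes called higher numbered 5287, 5536 and 5629, genes called lower 1546, 1442 and 1447, and 5 of the 10 genes were higher. Without 1 library, 4407 to 5386 genes passed, 2119 to 2724 higher and 2288 to 2662 lower, and 2 to 3 of the 10 genes were higher. Without WT 2 and TG 5, 1827 genes were called higher. The ratio of recovered reads to the scaling factor implied by the FPKM ran from 1.02 to 1.22 in WT libraries and from 0.822 to 0.883 in TG libraries. Division by all recovered reads takes that difference out, which raises TG values relative to WT. Why the factors differ, and the cause of the other shifts, was not tested.

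Same-numbered WT and TG mice did not deviate together (correlations of -0.190, -0.173, 0.037 and -0.238 over genes), so the numbers do not pair them; the replicate block gave 4847 genes past the threshold in place of 5513. The fewest reads behind any value of the 10 genes were 114, for Ppara in TG 2, and the other TG values of Ppara rest on 121 to 200 reads, which limits their precision.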

Other observations

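Other nuclear receptors, grouped by the transcription factor family that the deposited table gives, also differed between the genotypes, and these genes were named after their values were seen. Esrra, the estrogen-related receptor that acts with PGC-1 coactivators on mitochondrial genes, was 48.1 ± 3.26 FPKM in WT mice against 20.8 ± 2.25 FPKM in TG mice (log2 change -1.17, SD, n = 4 each). Its paralog Esrrg went from 1.63 ± 0.334 to 0.359 ± 0.0515 FPKM (-0.95) and passed the filter through its WT libraries alone. In the same family the glucocorticoid receptor Nr3c1 was higher by 0.54 and Esr1 by 0.35. Of the 3 orphan receptors of the Nr4a group, Nr4a3 fell by 1.89 and Nr4a2 by 0.70 in limma with Benjamini-Hochberg adjustment, and Nr4a1 did not pass (log2 change -0.92, adjusted p = 0.0579). The deposited table lists leucine zipper factors apart from its C/EBP family. Of 39 tested there, 12 were lower, among them Atf3 (-2.87) and Fosl1 (-2.83), and 5 were higher, among them Xbp1 (1.04). Of all tested genes 21.8% were lower and 22.3% higher. Ddit3, Atf3, Atf4, Nfil3, Hlf and Dbp were also counted above among C/EBP family genes and partners, so the counts are not separate.

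Of 13 tested genes within 500 kb of Cebpa on chromosome 7, 4 were higher, 1 lower and 8 not past the test, where 22.3% of all tested genes were higher and 21.8% lower. The 4 higher genes include Gm45091, the antisense gene that overlaps Cebpa, with at most 130 reads in any library. Whether any of these reads came from Cebpa was not tested. Slc7a10, an amino acid transporter of adipocytes 67.1 kb away, went from 4.60 ± 1.65 to 51.0 ± 10.5 FPKM (log2 change 3.24, limma adjusted p = 6.42e-06). Lrp3 went from 2.82 ± 0.569 to 10.3 ± 1.45 FPKM (1.57), and the dipeptidase gene Pepd from 24.1 ± 4.55 to 62.5 ± 24.8 FPKM (1.26, limma adjusted p = 0.00434). Lrp3 (35200027-35215498, minus strand) overlaps Slc7a10 (35186385-35201114, plus strand). With the strand setting not given, reads from the stretch they share cannot be told apart. Kctd15, 463 kb from Cebpa, was lower (-0.37, adjusted p = 0.0237). Whether these genes share control with Cebpa was not tested.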
